A study of Homo sapiens with 2 samples.

Results

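The mRNAs of 9 histone variant genes were followed: H3-3A and H3-3B (histone H3.3), H2AZ1 and H2AZ2 (H2A.Z), MACROH2A1 and MACROH2A2 (macroH2A), H2AX, H2AJ and H1-10. They were taken by symbol, through their Ensembl identifiers in GENCODE release 44, from gene tables of 58735 rows, and all 9 were present in both tables. RNA came from MCF10a-Snail-ER cells, a human mammary epithelial line that stably carries the transcription factor Snail fused to the estrogen receptor, after 1 day in 100 nM tamoxifen to start an epithelial-to-mesenchymal transition. Polyadenylated RNA of the same description was read as native strands on a MinION (direct RNA kit) and as fragmented, amplified cDNA on Illumina (TruSeq stranded mRNA kit). There was 1 library per platform, both from induced cells; uninduced and parental cells were not analysed here. The data therefore compare the platforms and the genes, not the treatment, and no value has a replicate. In bulk RNA, fewer cells expressing a gene and less of its RNA per cell cannot be told apart. Every interval below covers counting error at 95% only.

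Histones package DNA into nucleosomes. Most are made in bulk during DNA replication from clustered genes whose mRNAs end in a stem-loop and carry no poly(A) tail. Replication-independent variants come from genes outside those clusters, and their mRNAs are polyadenylated, so that they can be made and placed in chromatin throughout the cell cycle. H3.3 marks active genes and is also laid down at heterochromatin, H2A.Z sits next to promoters, phosphorylated H2AX marks DNA breaks, macroH2A has a large extra domain and is enriched in silent chromatin, and H1-10 is a linker histone that binds between nucleosomes.

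The 3′ ends of the variants set them apart from clustered histones in sequence, with H2AX as the exception. A search for the histone stem-loop consensus, on the transcript strand, in the 3′ untranslated region of the canonical transcripts found it in 69 of 69 clustered histone genes. It was found in 1 of the 9 variants, H2AX, and in 75 of all 20046 protein-coding transcripts (0.374%). The H2AX site is shown because H2AX is known to give both a stem-loop mRNA and a longer polyadenylated one. It starts 50 bases after the coding sequence, 1040 bases from the annotated end of the polyadenylated transcript (hg38, chr11:119094898-119094913, minus strand), and capitals mark the letters fixed in the search, the others being free.
H2AX stem-loop: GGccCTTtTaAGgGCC
A poly(A) signal, AATAAA or ATTAAA, lay in the last 50 bases of 7 of the 9 canonical transcripts, against 77.4% of all protein-coding ones. MACROH2A1 and H2AZ2 had neither hexamer there.

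H3-3A and H3-3B are known to encode the same H3.3 protein, yet their coding sequences of 411 bases differed at 88 positions (78.6% identity). The stretch from base 166 to base 255 of the coding sequence is shown because it holds the most differences among windows of 90 bases that start on a codon. It also shows the intronless copies of H3-3A in the genome that bear on its counts. Capitals mark differences from H3-3A (hg38).
H3-3A: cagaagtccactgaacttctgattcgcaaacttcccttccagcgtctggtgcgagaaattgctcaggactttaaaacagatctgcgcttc
H3-3B: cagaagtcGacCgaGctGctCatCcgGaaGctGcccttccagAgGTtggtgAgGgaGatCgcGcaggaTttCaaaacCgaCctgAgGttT
H3P6: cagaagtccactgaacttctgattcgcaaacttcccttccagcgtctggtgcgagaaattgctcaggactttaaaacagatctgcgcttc
H3P16: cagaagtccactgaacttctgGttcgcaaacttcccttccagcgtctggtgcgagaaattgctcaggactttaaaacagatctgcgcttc
The 2 H3.3 genes differed at 24 of these 90 positions. H3P6, a processed pseudogene on chromosome 2, had no difference from H3-3A over the whole coding sequence, and H3P16, on chromosome 4, had 3 (A187G, G386A and C388A, counted from the first coding base, H3-3A base first).

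Counts over all genes summed to 403235 for Nanopore and 191741714 for Illumina, so that 1 count stood for 2.48 CPM (counts scaled to a library total of 1000000) by Nanopore and for 0.00522 CPM by Illumina. All 8 basal mammary markers looked at were detected: the keratins KRT5, KRT14, KRT17 and KRT6A stood between 293 and 1686 CPM in the Nanopore data and from 253 to 1447 CPM in the Illumina data. ITGB4, LAMB3 and EGFR stood at 126 to 159 CPM (Nanopore) and 189 to 423 CPM (Illumina), and TP63 at 12.4 and 33.2 CPM. Fibroblast, leukocyte, endothelial and liver markers (COL1A1, COL1A2, PTPRC, PECAM1, ALB) had 0 or 1 Nanopore count each and at most 5.07 CPM by Illumina. The parts of the transgene, SNAI1 and ESR1, had 286 and 389 Nanopore counts (709 and 965 CPM). In Illumina CPM, not divided by length, they stood in the reverse order (860.4 and 143 CPM). Reads of the transgene and of the cells' own SNAI1 and ESR1 genes were not separated.

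All 9 variants were detected on both platforms. Together they held 960 Nanopore counts (0.238% of the library, exact binomial interval 0.223 to 0.254%) and 566033 Illumina counts (0.295%, 0.294 to 0.296%). H2AZ1 alone accounted for 38.3% and 42.6% of these. Direct RNA reads are reads of single RNA strands, so Nanopore CPM was not divided by length, although how a read over several genes was counted is not given. On that scale levels spanned 92.0-fold.

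H2AZ1 (chromosome 4, 99948086 to 99950355), the main H2A.Z gene, was the highest at 368 Nanopore counts, 913 CPM (exact interval 822 to 1011). H3-3B (chromosome 17, 75776434 to 75785893) followed at 199 counts, 494 CPM (427 to 567). These were the 2 leading members, and their intervals did not overlap each other or any other member's as the genes were counted. With the counts of the identical copy H3P6 added, H3-3A would stand at 1039 CPM (942 to 1143), above H3-3B and overlapping H2AZ1.

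Next came 4 genes whose neighbours in the order could not be told apart by their intervals. MACROH2A1 (chromosome 5, 135334381 to 135399914) had 97 counts, 241 CPM (195 to 293). H3-3A (chromosome 1, 226061851 to 226072019) had 91 counts, 226 CPM (182 to 277). H1-10 (chromosome 3, 129314771 to 129316286) had 69 counts, 171 CPM (133 to 217).
H2AZ2 (chromosome 7, 44826791 to 44848087), the second H2A.Z gene, had 66 counts, 164 CPM (127 to 208), and lay above all remaining members. H2AX (chromosome 11, 119093874 to 119095465) had 35 counts, 86.8 CPM (60.5 to 121). H2AJ (chromosome 12, 14774405 to 14778002), a variant close to the canonical H2A, had 31 counts, 76.9 CPM (52.2 to 109), not separable from H2AX. MACROH2A2 (chromosome 10, 70052544 to 70112282) was the lowest, with 4 counts, 9.92 CPM (2.70 to 25.4), just above the 7.44 CPM that 3 counts stand for.

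**Figure D1:**
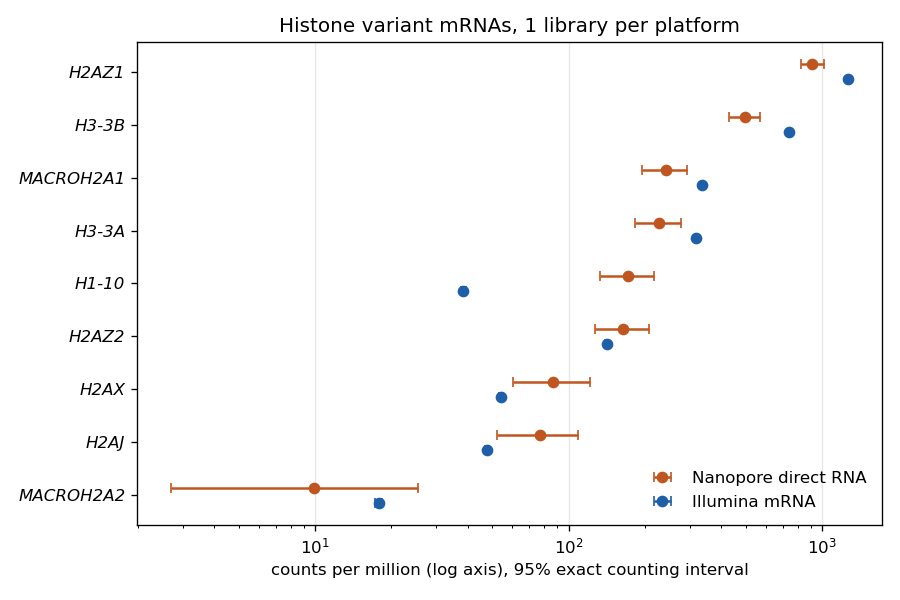
CPM of the 9 histone variant genes (x axis, log scale) in the Nanopore (orange) and Illumina (blue) libraries, with exact counting intervals as bars; Illumina bars are mostly narrower than the points. H1-10 lies at 171 CPM by Nanopore and 38.4 by Illumina, the widest gap of the 9 genes, and H2AZ1 is highest in both.

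Illumina reads fall along the whole transcript, so the Illumina order of the variants was taken after division by transcript length. The scale is TPM (transcripts scaled to a total of 1000000), by the canonical transcript. H2AZ1 was again highest, at 2253 TPM (2244 to 2262). H3-3A stood at 460.2 TPM (457 to 464) and H3-3B at 425 (422 to 427), the reverse of their order by Nanopore. The reversal held only per canonical length (1070 bases for H3-3A, 2705 for H3-3B): by mean transcript length H3-3A was at 404 and H3-3B at 837 TPM, and by union exonic length at 225 and 327 TPM.

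MACROH2A1 was at 271 TPM (269 to 273), H2AJ at 119 (117 to 122) and H2AZ2 at 72.4 (71.5 to 73.2). H2AX was at 52.8 TPM (51.8 to 53.8), H1-10 at 39.2 (38.3 to 40.1) and MACROH2A2 at 14.3 (13.8 to 14.8). No neighbouring intervals overlapped, but these intervals leave out the choice of length. H2AJ has a canonical transcript of 620 bases and an annotated alternative several times longer, and it fell to 38.0 TPM by mean transcript length. With union exonic length 6 of the 9 genes changed place and with mean transcript length 5 did, while H2AZ1 stayed first and MACROH2A2 last under all 3 lengths.

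**Figure D2:**
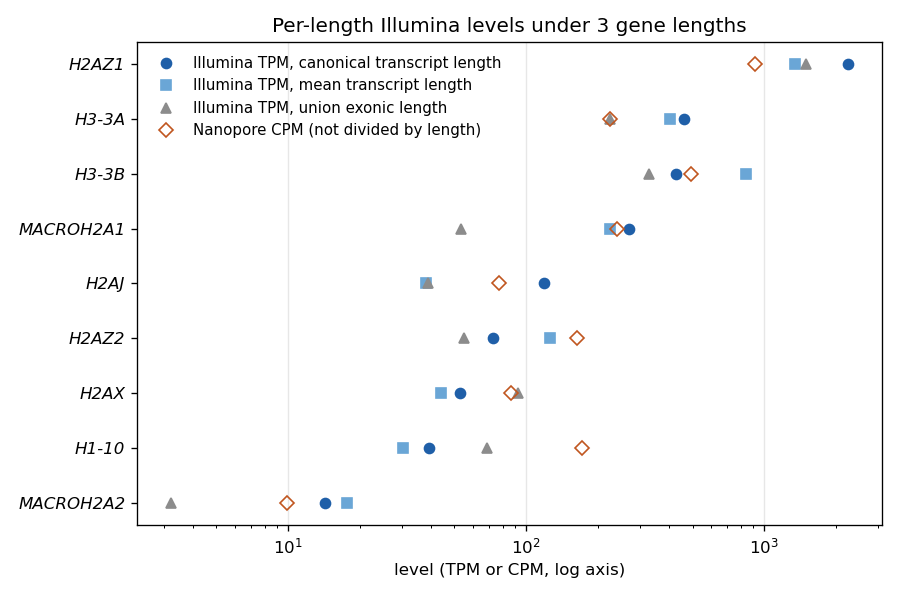
Illumina level per transcript length (TPM, x axis, log scale) under canonical (circles), mean (squares) and union exonic (triangles) length, with Nanopore CPM as open diamonds, for each gene. The marks for MACROH2A1 and H2AJ spread widely with the length used, and H2AZ1 is highest for every kind of mark.

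The 2 platforms were then compared gene by gene, as the log2 ratio of the CPM values with 1 added to each (Nanopore over Illumina), for the 12414 genes whose mean CPM reached 5. All 9 variants passed that filter. A ratio of at least 2-fold was reached by 1 variant in the Nanopore direction, where 19.2% of all tested genes did, and by 0 in the Illumina direction, where 30.2% did (49.5% in either). At 4-fold, 1 variant passed in the Nanopore direction, where 12.9% did, and 0 in the Illumina direction, where 8.14% did (21.0% in either). The median over the 9 genes was -0.46 and over all tested genes -0.42 (quartiles -1.18 and 0.54). The tested protein-coding genes had a median of -0.58, and 10.1% and 33.8% of them passed 2-fold in those directions (43.9% in either), and 4.74% and 8.56% passed 4-fold (13.3% in either). With 1 library per platform no p-value was computed.

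H1-10 was the variant past 2-fold. Its 69 Nanopore counts against 7355 Illumina counts (171 and 38.4 CPM, the latter 37.5 to 39.2) gave a CPM ratio of 4.46 (exact conditional interval 3.47 to 5.65) and a log2 ratio of 2.13. Of the tested genes, 87.8% had a lower ratio. Over the other scalings, pseudocounts and lengths, its log2 ratio ranged from 1.31 (union exonic length) to 2.46 (mean transcript length). The canonical, union and mean lengths of H1-10 are all 1516 bases, so the choice of length moved its ratio only through the TPM total over all genes. None of these settings changed how reads were divided between H1-10 and the overlapping gene H1-10-AS1, which had 63 Nanopore counts.

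H2AX and H2AJ were also higher by Nanopore, within 2-fold. H2AX had 10399 Illumina counts, 54.2 CPM (53.2 to 55.3), a CPM ratio of 1.60 (1.11 to 2.23) and a log2 ratio of 0.67, which became -0.09 with the Illumina value taken per union exonic length. By canonical length it was 0.71, although both lengths of H2AX are 1592 bases, so these values differ only through the TPM total over all genes. H2AJ had 9136 Illumina counts, 47.6 CPM (46.7 to 48.6), a CPM ratio of 1.61 (1.10 to 2.29) and a log2 ratio of 0.68, which became -0.62 by canonical transcript length. H1-10, H2AX and H2AJ are the 3 variants whose canonical transcript is a single exon, and their transcripts were the richest in G and C of the 9, at 68.6%, 66.8% and 63.1%, against 42.8 to 52.9% for the others and a median of 49.2% over all protein-coding transcripts. Whether exon number or base composition has a part in their ratios was not tested.

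As reads were assigned to genes, the most abundant variants were lower by Nanopore, within 2-fold in CPM. H2AZ1 had 241402 Illumina counts, 1259 CPM (1254 to 1264), and a CPM ratio of 0.725 (0.653 to 0.803). H3-3B had 142108 counts, 741 CPM (737 to 745), and a ratio of 0.666 (0.577 to 0.765). MACROH2A1 had 64202 counts, 335 CPM (332 to 337), and a ratio of 0.718 (0.583 to 0.877).
H3-3A had 60922 counts, 318 CPM (315 to 320.3), and a ratio of 0.710 (0.572 to 0.872). The log2 ratios of these 4 genes, -0.46, -0.59, -0.48 and -0.49, lay close to the median of all tested genes, -0.42. These ratios moved with length in both directions. By canonical length H2AZ1 went to -1.30 and H3-3A to -1.02, both past 2-fold in the Illumina direction, and H3-3B went to 0.22. By union length H2AZ1 was at -0.72, H3-3A at 0.00, H3-3B at 0.59 and MACROH2A1 at 2.15, the last past 2-fold in the Nanopore direction. MACROH2A1 was at 0.10 by mean length. None of these lengths changed how reads were divided between a variant and its partner genes. H2AZ1-DT, over H2AZ1, had 288 Nanopore and 366 Illumina counts, and PITX1-AS1, over MACROH2A1, had 109 and 4257. H3P6, a copy of H3-3A, had 328 and 11316, and UNK, over H3-3B, had 4 and 3226. The direction of these ratios therefore holds only for the counts as assigned.

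For 2 variants the counting interval of the CPM ratio included 1. H2AZ2 had 27094 Illumina counts, 141 CPM (139.6 to 143), a CPM ratio of 1.16 (0.896 to 1.47) and a log2 ratio of 0.21. MACROH2A2, whose log2 ratio was -0.78, had 3415 Illumina counts, 17.8 CPM (17.2 to 18.4), and a CPM ratio of 0.557 with an interval from 0.152 to 1.43, since it rested on 4 Nanopore counts. By length, H2AZ2 went to 1.17 (canonical) and 1.57 (union), past 2-fold in the Nanopore direction, and MACROH2A2 turned to 1.37 by union length. Dividing by canonical transcript length moved the median of all tested genes from -0.42 to 0.50, and by union length to 0.41. Relative to those medians, H1-10 lay 1.60 above by canonical and 0.90 above by union length, and H2AZ2 0.67 and 1.16 above. By canonical length H2AX lay at 0.21, and the rest lay below, from -1.80 for H2AZ1 to -0.28 for H3-3B, with H2AJ at -1.12. By union length H2AZ1 (-1.13), H2AX (-0.50) and H3-3A (-0.41) lay below. MACROH2A1 (1.74), MACROH2A2 (0.96), H2AJ (0.56) and H3-3B (0.18) lay above.

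**Figure D3:**
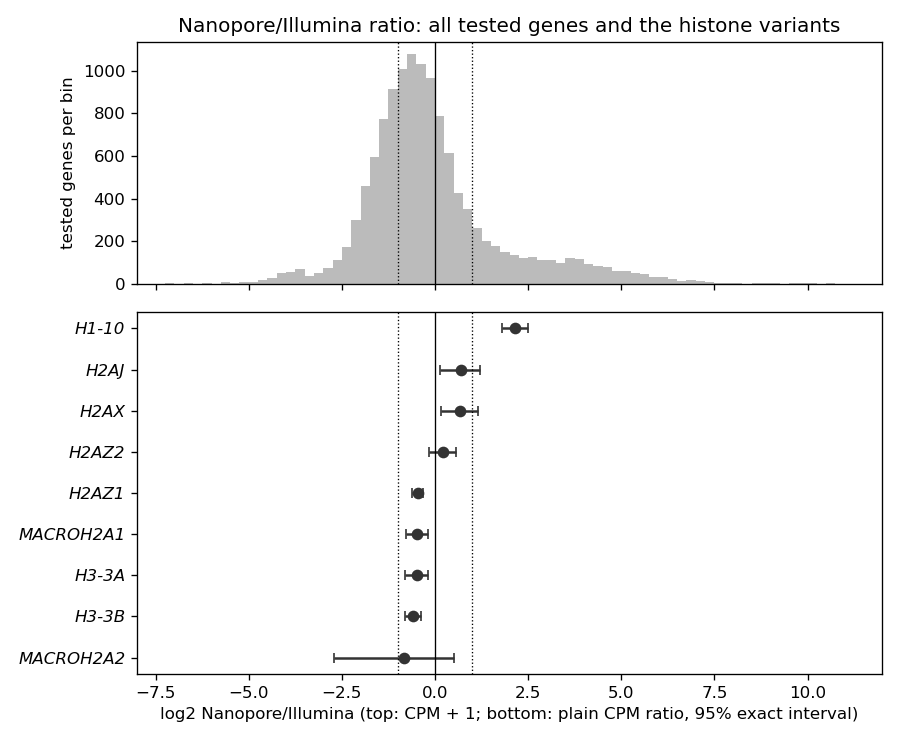
Top, the number of tested genes (y axis) by log2 Nanopore/Illumina ratio; bottom, the 9 variants with exact conditional intervals as bars, on the same x axis, with dotted lines at 2-fold. H1-10, with a CPM ratio of 4.46, is the variant whose point lies past a dotted line, and the other 8 points, from 0.557 for MACROH2A2 to 1.61 for H2AJ, lie between them.

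Within each pair of genes for the same variant, a single gene carried most of the mRNA for H2A.Z and macroH2A. H2AZ1 held 84.8% of the H2A.Z counts by Nanopore (exact binomial interval 81.1 to 88.0%) and 89.9% by Illumina , or 96.9% per canonical transcript length. The Nanopore interval did not reach the Illumina share. That interval leaves out how reads were divided between H2AZ1 and H2AZ1-DT, which had 288 Nanopore and 366 Illumina counts. Whether the gap would remain with another division was not tested. MACROH2A1 held 96.0% of the macroH2A counts in the Nanopore library (90.2 to 98.9%), against 94.9% in the Illumina library (94.8 to 95.1%). The H2A.Z coding sequences differed at 76 of 387 positions, and those of the macroH2A genes were 69.8% identical over 1131 aligned columns.

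H3-3A held 31.4% of the H3.3 counts in the Nanopore library (26.1 to 37.1%), against 30.0% in the Illumina library (29.8 to 30.2%), a gap within the Nanopore counting interval. Per canonical transcript length the Illumina share was 52.0%, per union length 40.7% and per mean length 32.6%. This share is uncertain for a further reason, the genomic copies of H3-3A.

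Coding-sequence copies, defined as at least 90% identical over at least 80% of the coding sequence, numbered 13 for H3-3A, 2 for H2AZ1 and 1 each for H2AZ2 and H3-3B. None was found for H2AX, H2AJ, H1-10 and the macroH2A genes, and alternate contigs of hg38 held a copy of none of the 9 variants. The copy of H3-3A that holds H3P6 (chromosome 2, 174719800 to 174720840, plus strand) lacks introns and aligned to the 1070-base canonical transcript over 1042 columns with 0 mismatches and 1 gap. H3P6 had 328 Nanopore counts, 813 CPM (728 to 906), against 91 for H3-3A itself. By Illumina it had 11316 counts, 59.0 CPM (57.9 to 60.1), against 60922 for H3-3A. The pseudogene was thus at 360.4% of its parent's count in the Nanopore library and at 18.6% in the Illumina library, and its CPM ratio was 13.8 (12.3 to 15.4). H3P6 is annotated over 411 bases, the coding part of the copy, against the 1070 bases of the canonical H3-3A transcript. The Illumina values here were not divided by length.

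The lncRNA gene ENSG00000236449 (chromosome 2, 174547141 to 174776720), whose body holds that copy and whose annotated exons do not touch it, had 378 Nanopore counts and 0 Illumina counts, a count that allows up to 0.0156 CPM. With the counts of H3P6 added to those of H3-3A, a setting chosen after the data were seen, the sum was 1039 CPM (942 to 1143) in the Nanopore library, against 377 CPM (374 to 379.5) in the Illumina library. The CPM ratio then turned from 0.710 to 2.76 (2.50 to 3.04), and the H3-3A share of H3.3 counts became 67.8% by Nanopore (64.0 to 71.5%) and 33.7% by Illumina. From which of the identical loci these reads came was not tested. H3P16 had 2 Nanopore and 900 Illumina counts (MGST2, whose body holds it, had 33 and 9367), H3P47 0 and 52, and the remaining 10 copies of H3-3A had no Nanopore count and at most 9 Illumina counts.

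Copies of the other variants took few counts. H2AZP2, 95.6% identical to H2AZ1 in the coding sequence, had 0 Nanopore and 3059 Illumina counts, 1.27% of the H2AZ1 count. H2AZP3 had 0 and 122, and H2AZ2P1 had 0 and 367, which is 1.35% of H2AZ2. H3-5, an intronless gene 96.6% identical to the H3-3B coding sequence, had 0 and 476, or 0.335% of H3-3B.

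Genes on the opposite strand whose bodies overlap a variant were also assigned counts. Whether those reads came from these genes or from the variant was not tested. H2AZ1-DT, an lncRNA gene that starts inside H2AZ1 and runs the other way, had 288 Nanopore counts and 366 Illumina counts, 714 and 1.91 CPM, a ratio of 374 (319.5 to 438). Its Nanopore count was 78.3% of that of H2AZ1 and its Illumina count 0.152%. The overlap covers bases 1 to 108 of the 866-base H2AZ1 transcript, 61 of them in H2AZ1-DT exons. H1-10-AS1 had 63 Nanopore and 773 Illumina counts (91.3% and 10.5% of H1-10), a ratio of 38.8 (29.5 to 50.1), and its body covers bases 1 to 895 of the 1516-base H1-10 transcript. PITX1-AS1 had 109 and 4257 counts (112% and 6.63% of MACROH2A1), a ratio of 12.2 (9.97 to 14.7). Its body covers bases 792 to 1917 of the MACROH2A1 transcript, the 3′ end. Of the bases so covered, 345 lie in exons of H1-10-AS1 and 175 in exons of PITX1-AS1.

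The body of AIFM2, a protein-coding gene, covers the 3′ part of MACROH2A2 from base 903, with 13 of those 1030 bases in AIFM2 exons. AIFM2 had 13 and 4781 counts, above MACROH2A2 itself in both libraries. Genes that overlap only introns or upstream sequence had little: UNK, over H3-3B, had 4 and 3226 counts (2.01% and 2.27%), ENSG00000270021, over MACROH2A1, had 2 and 59, and H3-3A-DT had 0 and 10. MIR4738, inside H3-3B, was at 0 in both. How reads that overlap several genes, or either strand, were counted is not given in the sources used here, so reads of a variant and of its partner cannot be told apart. H2AZ2, H2AX and H2AJ overlap no gene of the tables.

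**Figure D4:**
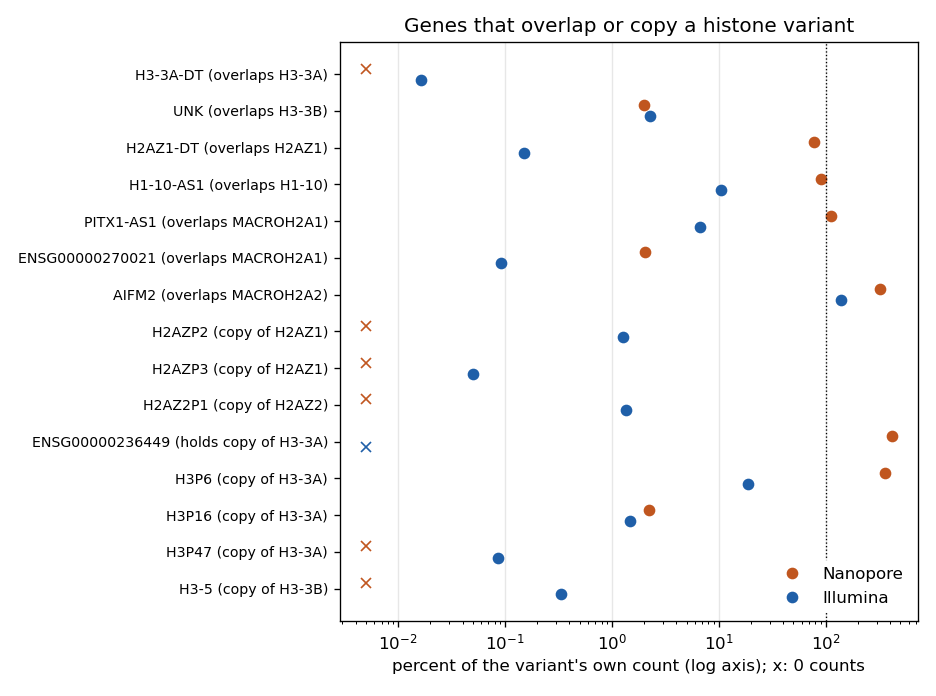
Count of each gene that overlaps a variant or holds a copy of it, as percent of the variant's own count in the same library (x axis, log scale), with crosses at the left edge for 0 counts, for genes of at least 10 counts in either library, leaving out protein-coding genes that hold a copy. H3P6, H2AZ1-DT, H1-10-AS1 and PITX1-AS1 lie at 360.4%, 78.3%, 91.3% and 112% by Nanopore and between 0.152% and 18.6% by Illumina.

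The start of H2AZ1 is shown because it lies inside the body of H2AZ1-DT. The window runs from 250 bases before to 50 bases after the RefSeq start (GRCh38.p14, chr4:99950226-99950525, minus strand), and capitals mark CCAAT (or ATTGG, its other strand) and TATAAA (or TTTATA).
H2AZ1 start: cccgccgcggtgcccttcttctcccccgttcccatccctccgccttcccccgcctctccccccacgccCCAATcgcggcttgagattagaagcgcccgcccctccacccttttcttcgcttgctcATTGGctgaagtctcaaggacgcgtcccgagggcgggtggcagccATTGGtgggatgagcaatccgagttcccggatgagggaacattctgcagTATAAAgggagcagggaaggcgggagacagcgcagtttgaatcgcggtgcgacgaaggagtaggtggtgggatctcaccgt
RefSeq gives 13 such windows for the 9 genes, since some have several starts. CCAAT was found in a window of 7 of the 9 genes (9 of 13 windows, against 34.6% of 35116 windows of all genes) and TATAAA in 4 of 9 (4 of 13 windows, against 11.5%). The genes with TATAAA were H3-3B, H2AZ1, H2AX and H1-10. These are matches of letters only.

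Genes that deposit, exchange or read the variants were taken from lists of known chaperones, remodelers and enzymes. Of 9 genes for H3.3 deposition, 8 were detected by Nanopore and 9 by Illumina. In CPM, 1 was at least 2-fold higher by Nanopore, where 19.2% of all tested genes were, and 6 by Illumina, where 30.2% were; the median log2 ratio was -1.16, beside -0.42 for all tested genes. In each list the genes of highest mean CPM over both libraries, a value not divided by length, are named. Here they were DEK, a chromatin protein that binds H3.3 (84 and 40355 counts, log2 ratio -0.01), and the histone chaperone NASP (28 and 63824 counts, -2.24), although HIRA was above NASP by Nanopore. HIRA, the core of the complex that places H3.3 at active genes, was the one higher by Nanopore (43 and 8810 counts, CPM ratio 2.32, 1.68 to 3.13). DAXX, which with ATRX places H3.3 at heterochromatin, had 1 Nanopore count against 16312 (log2 ratio -4.63), and its coding sequence is also present on alternate contigs of hg38.

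Of 16 genes for H2A.Z exchange, all were detected on both platforms, 0 were 2-fold higher by Nanopore (19.2% of all tested genes) and 6 by Illumina (30.2%), and the median was -0.29. Highest in mean CPM were the nucleosome assembly protein NAP1L1 (228 and 127669 counts, -0.24) and ANP32E, a chaperone that removes H2A.Z (36 and 56265 counts, -1.71). By Nanopore, the helicases RUVBL1 (82 counts) and RUVBL2 (53 counts), and ZNHIT1 (38 counts), were above ANP32E. Per canonical length RUVBL2 (1545 bases, 159 TPM) was above NAP1L1 (13159 bases, 78.4 TPM), the reverse of their Nanopore order (131 and 565 CPM). Among the 6, DMAP1 had the ratio nearest to 0 (-1.25) and NAP1L4 the lowest (-2.07); NAP1L4 also has a copy on an alternate contig. SRCAP and EP400, the motors that exchange H2A for H2A.Z, had 10 and 8 Nanopore counts (log2 ratios -1.79 and -1.29).

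Of 12 kinases, readers and remodelers of H2AX, 11 were tested and 10 were 2-fold higher by Illumina (30.2% of all tested genes), 0 by Nanopore (19.2%), with a median of -1.59. SSRP1 and SUPT16H, the subunits of the chaperone FACT, were the highest in mean CPM, at 57 and 36 Nanopore counts. BAZ1B, a kinase for H2AX, had the ratio nearest to 0 of the 10 (-1.36), and MDC1, the reader of phosphorylated H2AX, the lowest (1 and 11970 counts, -4.19); it too has copies on alternate contigs. PARP1, to which macroH2A binds, had 47 and 98617 counts (-2.13), PARG had -1.62 and HELLS -0.59.

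The canonical transcripts of these lists were longer than those of the variants: medians were 4053 bases for H3.3 deposition, 1989.5 for H2A.Z exchange and 6115 for the H2AX list, against 1592 for the 9 variants and 2882 for all tested genes. With Illumina counts divided by canonical length, the medians became 0.60, 0.10 and 0.20, beside 0.50 for all tested genes. The genes past 2-fold then numbered 3 by Nanopore and 3 by Illumina for H3.3 deposition, 4 and 2 for H2A.Z exchange, and 3 and 1 for the H2AX list, where 35.6% and 11.5% of all tested genes passed. The filters differ: list genes were kept by mean CPM, but all genes by the mean of Nanopore CPM and Illumina TPM. Of the 3 by Illumina for H3.3 deposition, 1 had 0 Nanopore counts and 1.39 TPM, below the second filter.

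**Figure D5:**
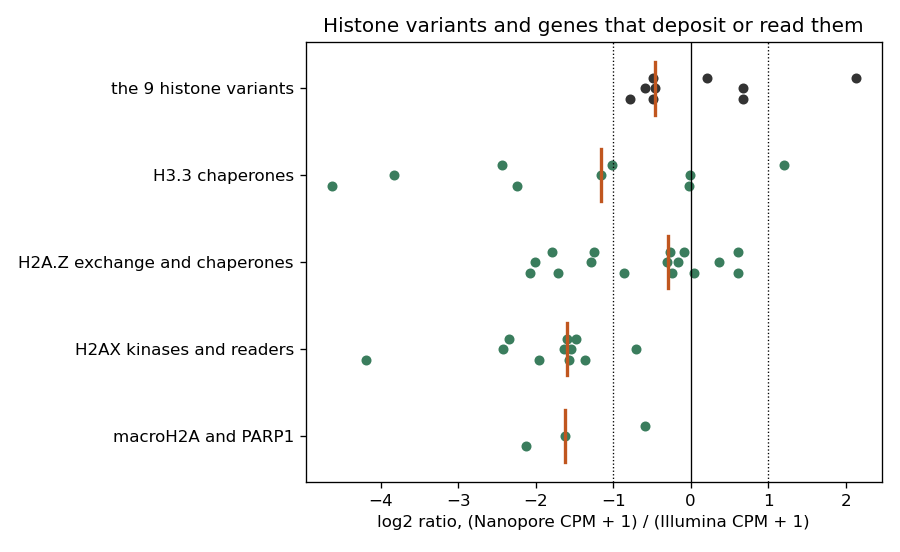
Log2 Nanopore/Illumina ratio of CPM with 1 added to each (x axis) for each tested gene of the variants and of the 4 lists of genes that deposit, exchange or read them (rows), with the median of each as a vertical bar and dotted lines at 2-fold. The variants' median is -0.46 and the H2AX list's is -1.59.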

How the data were processed

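Per the labels, polyadenylated RNA of MCF10a-Snail-ER cells gave 1 Nanopore direct RNA and 1 Illumina library, each its own group. The authors deposited raw counts per Ensembl gene. Per the submitters' processing notes, hg38, minimap2 2.11-r797, HISAT2 2.1.0 and featureCounts were used; counting options, strand setting, annotation release and the meaning of a suffix in the Nanopore column tag are not given in the sources used here.

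Names, positions and lengths came from GENCODE release 44 (58207 of 58735 identifiers matched). CPM used library totals. Ratios used a pseudocount of 1 CPM and genes whose mean CPM reached 5. Intervals are exact (Clopper-Pearson, scaled for TPM, and conditional binomial for ratios); amplified reads are not independent molecules. No p-value was computed, since each platform has 1 library; the fold rule and the intervals were tested on simulated data. Copies were searched with blastn 2.17.0, with the whole transcript realigned to each copy and 3000 bases on either side. TMM factors came from edgeR 4.0.16 in R 4.3.3; the rest used Python 3.11.15. Named genes were all variants, every overlapping gene or copy with at least 10 counts, and for each list the 2 genes of highest mean CPM and the extremes past 2-fold. SRCAP, EP400, RUVBL1, RUVBL2, ZNHIT1 and the genes under 10 counts were named after their values were seen. The variants and lists were chosen with earlier results of these data known. A result for 1 gene of the lists is not reported here.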

Additional observations from a re-analysis of the deposited data

How the results depend on the processing

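With 1 library per platform, no replicate could be left out. No paired analysis was possible because each platform has 1 library and the values come from no test. Under TMM, median-ratio scaling, totals without mitochondrial genes and other pseudocounts, the numbers of genes past 2-fold stayed within 1.5 times of 2388 (Nanopore) and 3753 (Illumina). Dividing Illumina counts by length moved them to 4181 and 1345 (canonical), 4015 and 1705 (union exonic), and, for Illumina, 2149 (mean transcript), which moved the Nanopore share of calls from 38.9% to 75.7%, 70.2% and 58.8%. They were 4586 by Nanopore without a filter, 1176 and 2259 at a mean of at least 20 CPM, 1010 by Illumina at 4-fold and 1059 by Nanopore in protein-coding genes; these last settings test fewer or more genes or ask for a larger fold. Of the variants, 2 were past 2-fold in each direction by canonical length (35.6% of all tested genes by Nanopore, 11.5% by Illumina). By union length, 4 were past it in the Nanopore direction (33.4%). Among these, MACROH2A1 has 17013 union against 1917 canonical bases (53.3 against 271 TPM). MACROH2A2 has 14988 against 1932 bases (3.22 against 14.3 TPM). Why the platforms differ was not tested. Shares in pairs by Illumina moved for H3-3A from 30.0% to 52.0% (canonical), 40.7% (union), 32.6% (mean) and 33.7% (H3P6 added), for H2AZ1 from 89.9% to 96.9%, 96.5% and 91.5%, and for MACROH2A1 from 94.9% to 94.3% (union) and 92.7% (mean). By Nanopore, H3P6 moved the H3-3A share from 31.4% to 67.8%. The per-length order changed for 6 and 5 variants. H1-10 stayed past 2-fold in the Nanopore direction under each scaling, pseudocount and length tried. None of these settings changed how reads were divided between H1-10 and H1-10-AS1. Depth limits MACROH2A2, with 4 Nanopore counts, most.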

Other observations

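Clustered histone genes, whose main mRNAs carry no poly(A) tail, had few counts beside the variants. Of 65 clustered genes in the tables, 20 had a Nanopore count and 50 an Illumina count, with sums of 97 counts (241 CPM, exact interval 195 to 293) and 20686 counts (108 CPM, 106 to 109). In counts, not divided by length, the 9 variants together exceeded them 9.90-fold by Nanopore and 27.4-fold by Illumina. Both libraries were of polyadenylated RNA, so these folds do not compare the levels of these gene groups in the cells. H2BC12 (21 and 5424 counts) was the highest by Illumina and H4C9 (22 and 1031 counts) by Nanopore.

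Of 16 other histone variant genes, 15 were in the tables. Of these, 3 had a Nanopore count and 5 an Illumina count. CENPA, the centromeric H3, had 15 and 5778 counts (CPM ratio 1.23, exact conditional interval 0.690 to 2.04).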
